A study of Mus musculus with 36 samples.

Results

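Dok3, Adam8, Dnase1l2, 1700016P03Rik, Cela1 and Cd180 were 6 genes of mouse brain whose levels differed strongly between Ndufs4 knockout (KO) and wild type (WT) animals given CP2. They were followed across all 36 samples of the study, as 6 of the 56980 genes in the deposited count table. All 6 passed the filter on low counts, which left 25601 genes. The members were picked from the KO against WT comparison under CP2, so their values in that comparison are given as a description, with no test. These questions were put to the data: which of the 6 also differed between KO and WT with vehicle, and which varied with markers of myeloid cells.

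NDUFS4 is a subunit of mitochondrial complex I, and its loss in mice is used as a model of Leigh syndrome, a brain disease in which microglia become reactive. CP2 is named in the study's title as a complex I inhibitor. Polyadenylated RNA came from hippocampus and cortex of animals 37 to 45 days old, after gavage with CP2 or vehicle on 3 days in a row. The titles carry a letter F or M, and the 8 groups were WT vehicle F, KO vehicle F, WT CP2 F, KO CP2 F, WT CP2 M and KO CP2 M with 5 samples each, and WT vehicle M and KO vehicle M with 3 samples each. The labels do not describe the knockout allele, do not say how hippocampus and cortex were combined and do not state that each sample was a separate animal. The p-values therefore measure the spread between these samples.

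Depth ranged from 46124548 to 88559920 reads counted on genes per sample. Ndufs4 lay between 27.4 and 39.1 CPM (read counts scaled to a common library total) in KO samples and between 38.9 and 62.8 CPM in WT samples, and KO and WT did not overlap within any letter and treatment. Xist lay between 439 and 798 CPM in F samples and at or under 0.833 CPM in M samples, L291 of KO CP2 M excepted, which had 47.3 CPM. The summed level of 7 neuronal markers was between 4539 and 7079 CPM across the samples. In samples of whole tissue, fewer cells of a type and less RNA per cell cannot be told apart.

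Dok3 (ENSMUSG00000035711, chromosome 13) is an adaptor protein of macrophages and B cells that restrains signalling from immune receptors. Adam8 (ENSMUSG00000025473, chromosome 7) is a membrane metalloproteinase known from granulocytes and macrophages. Cd180 (ENSMUSG00000021624, chromosome 13), also called RP105, is a relative of the Toll-like receptors carried by B cells and macrophages with its partner Ly86 (MD-1). Cela1 (ENSMUSG00000023031, chromosome 15) is an elastase of the chymotrypsin family, and Dnase1l2 (ENSMUSG00000024136, chromosome 17) is a relative of DNase I known from skin. 1700016P03Rik (ENSMUSG00000085609, chromosome 11) is a non-coding transcript that spans the genes of miR-212 and miR-132, microRNAs induced in neurons by synaptic activity.

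The stretch of 250 bases upstream of the annotated start is shown for the 3 members with known myeloid expression, because the letters GGAAGT are the core of sites bound by PU.1, a factor of the myeloid lineage. Capitals mark GGAAGT or its reverse complement ACTTCC, and each stretch is written 5′ to 3′ on the gene's own strand from RefSeq's GRCm38.p6 entries, which covered 5 of the 6 members (all but 1700016P03Rik).
Dok3 (chr13:55528539-55528788, minus strand): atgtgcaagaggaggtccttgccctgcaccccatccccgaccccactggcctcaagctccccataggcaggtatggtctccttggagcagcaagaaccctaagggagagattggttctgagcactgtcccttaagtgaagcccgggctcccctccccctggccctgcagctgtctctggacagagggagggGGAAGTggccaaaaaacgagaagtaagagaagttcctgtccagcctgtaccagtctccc
Adam8 (chr7:139992563-139992812, minus strand): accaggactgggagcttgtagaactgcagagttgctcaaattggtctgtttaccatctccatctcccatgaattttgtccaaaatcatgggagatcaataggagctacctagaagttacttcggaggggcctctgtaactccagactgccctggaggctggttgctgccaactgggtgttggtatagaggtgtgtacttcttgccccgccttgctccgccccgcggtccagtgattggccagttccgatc
Cd180 (chr13:102693297-102693546, plus strand): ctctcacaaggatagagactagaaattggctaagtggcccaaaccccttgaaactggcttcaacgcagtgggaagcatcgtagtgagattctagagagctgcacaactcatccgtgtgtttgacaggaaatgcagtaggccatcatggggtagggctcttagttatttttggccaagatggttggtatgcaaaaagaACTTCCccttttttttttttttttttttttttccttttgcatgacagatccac
The letters occurred once in the Dok3 stretch and once in the Cd180 stretch, and in none of those of Adam8, Dnase1l2 and Cela1. Both strands were searched, and 19.7% of 32851 promoter entries held the motif. The longer GAGGAAGT, which contains it, was in 2.4% of entries and in no member's stretch. A match is a description of the letters only.

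For 1700016P03Rik the mature sequences of the microRNAs it hosts are shown, since they carry what the transcript is known for. Capitals mark the seed, bases 2 to 8.
miR-132-3p (chr11:75173723-75173744, plus strand): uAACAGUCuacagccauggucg
miR-212-3p (chr11:75173443-75173464, plus strand): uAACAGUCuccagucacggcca
Both 3p arms share the seed AACAGUC. The libraries were made from polyadenylated RNA, so counts at these loci do not measure the mature microRNAs.

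Under CP2, 4 members were lower in KO and 2 were higher, and for all 6 the KO and WT samples did not overlap in F or in M. Such separation was found for 3.02% of tested genes in F and 11.1% in M, and nothing is read from it here since this comparison chose the members. Averaged over F and M, the log2 fold change of KO against WT was -1.61 (SE 0.26) for Dnase1l2, -1.54 (SE 0.20) for Adam8, -1.50 (SE 0.16) for Dok3 and -1.38 (SE 0.34) for 1700016P03Rik. It was 1.15 (SE 0.17) for Cela1 and 1.12 (SE 0.16) for Cd180. In the whole comparison 11.6% of genes passed an adjusted p of 0.05. Of these, 123 lower and 70 higher genes had a mean of at least 1 CPM and no overlap in F and in M. Among those 123, the 4 lower members held ranks 1 to 4 by size, and Egr3 (-1.0) came next. Cela1 and Cd180 held ranks 2 and 3 among the 70 higher genes, after the interferon-induced Ifit3 (1.20) and before Ifit3b (0.99). Over all tested genes the members ranked from 601 (Dnase1l2) to 1437 (Cd180) by absolute log2 fold change.

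**Figure D1:**
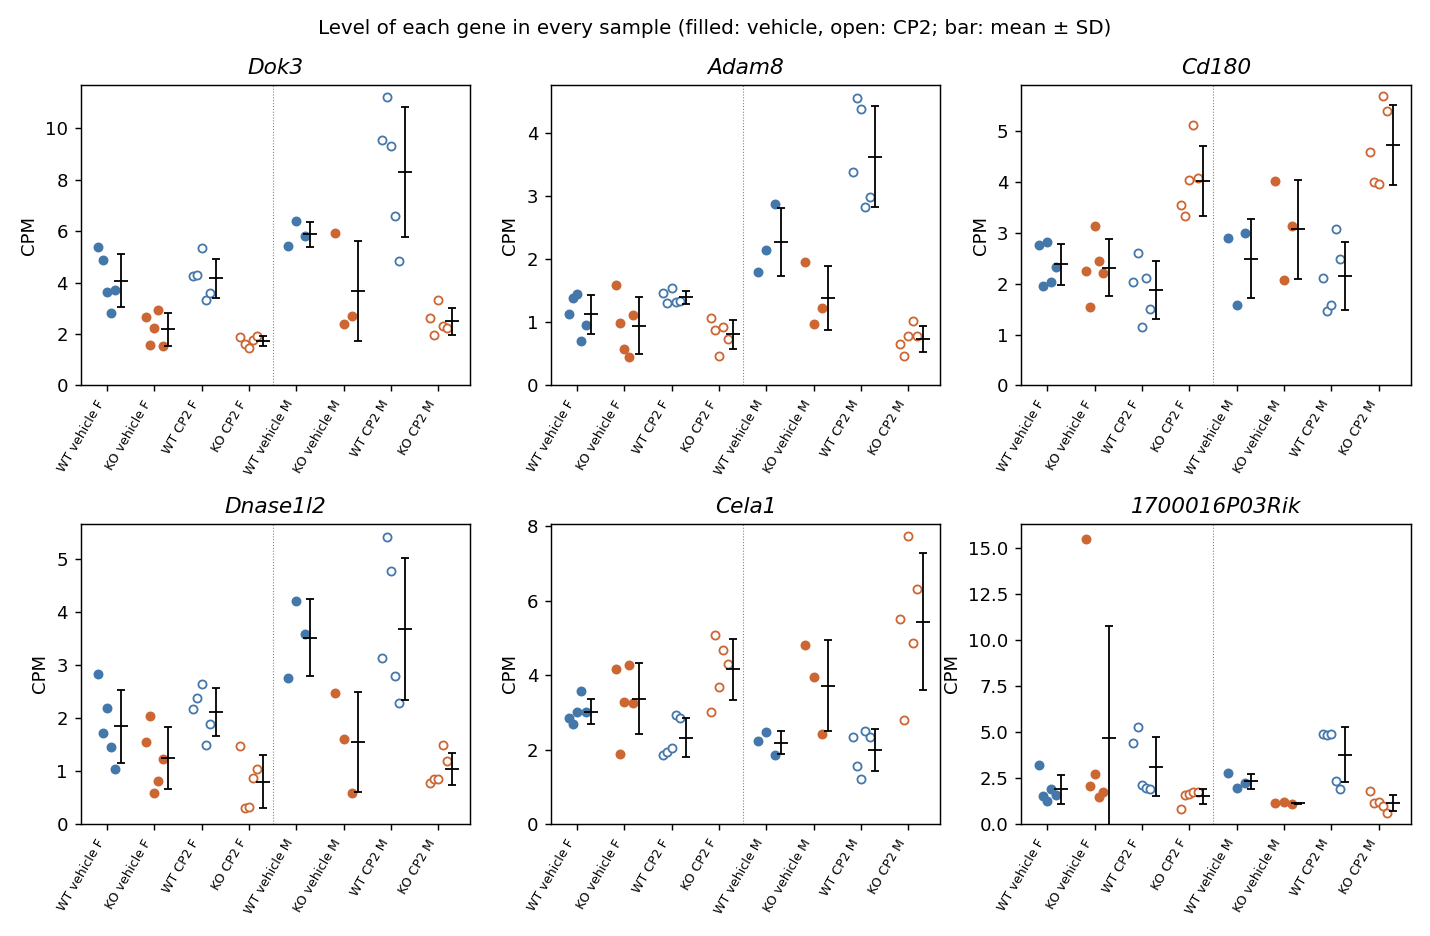
Level of each of the 6 genes in CPM (y axis, starting at 0) in every sample of the 8 groups (x axis). Blue is WT, orange is KO, filled points are vehicle and open points CP2, and the black bar is the mean ± SD, cut at 0; under CP2 the KO and WT points of each gene are apart in F and in M, and KO vehicle F sample L246 reaches 15.47 CPM for 1700016P03Rik.

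With vehicle, Dok3 was lower in KO brain and was the 1 member of 6 that passed the test averaged over F and M. Across the 25601 genes tested, 6.67% passed it. The log2 fold change of Dok3 was -0.79 (SE 0.19, adjusted p = 0.00732 by the quasi-likelihood test of edgeR), a level 1.73-fold lower. The difference between the vehicle groups was not among the values that chose the members, although the fit that chose them took its low-count filter and its spread from all 36 samples.

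In F, Dok3 stood at 5.37, 4.88, 3.63, 2.82 and 3.70 CPM in the 5 WT vehicle samples and at 2.65, 1.57, 2.23, 2.92 and 1.52 CPM in the 5 KO vehicle samples. The highest KO sample, L282, lay just above the lowest WT sample, L295, and all other KO samples lay below all WT samples. Groups without overlap made up 4.70% of genes here, and no member was among them. In M the WT vehicle samples held 5.42, 6.40 and 5.81 CPM and the KO vehicle samples 5.91, 2.37 and 2.71 CPM. The KO sample L310 lay among the WT samples and the other two well below them. The fold change was -0.91 (SE 0.23, adjusted p = 0.0174 in edgeR) in F, where 4.96% of genes passed, and -0.68 (SE 0.29, adjusted p = 0.308) in M, where 0.516% passed. The estimate in M went to -1.21 without KO sample L310 and to -0.45 without KO sample L319. The difference between F and M did not pass (-0.22, SE 0.37), as it did for 0.102% of genes. An exact two-sided permutation test of mean log2 CPM gave p = 0.00278 when samples were permuted within each letter, p = 0.0159 in F and p = 0.3 in M, where 3 against 3 samples cannot go below 0.1.

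The call for Dok3 averaged over F and M did not rest on 1 sample: it held when each of the 16 vehicle samples was left out, with log2 fold changes of -1.05 to -0.68 and adjusted p from 0.000527 to 0.046. In F alone the call was lost without KO sample L279 (-0.80, adjusted p = 0.0567) and without WT sample L252 (-0.78, adjusted p = 0.0633). In F, 3 of 8 markers of hippocampal neurons were lower in KO with vehicle, where 4.96% of all genes passed in either direction. The median of the 8 was -0.62 in F and 0.38 in M, where none passed. With the score of these markers as a covariate, Dok3 in F stood at -0.78 (adjusted p = 0.0691 in edgeR).

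Dok3 in CP2-treated brain spanned a wide range in WT. The WT CP2 F samples held 4.24, 4.28, 5.34, 3.34 and 3.60 CPM, and the KO CP2 F samples 1.89, 1.60, 1.44, 1.78 and 1.92 CPM. WT CP2 M had the highest level of all groups, with 9.55, 11.20, 9.33, 6.59 and 4.85 CPM, against 2.63, 1.95, 3.32, 2.32 and 2.22 CPM in KO CP2 M. Ordered by mean, the 8 groups ran from KO CP2 F over KO vehicle F, KO CP2 M, KO vehicle M, WT vehicle F, WT CP2 F and WT vehicle M to WT CP2 M. All 4 KO means were below all 4 WT means. For the CP2 means, the choice of the members had fixed this within each letter. Of the 7 neighbours in that order, 6 overlapped in their samples, the exception being WT CP2 F and WT vehicle M.

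The other genes of the Dok family and of Dok3 signalling were tested as a list. Of 13 measured (Dok1, Dok2, Dok4 to Dok7, Inpp5d, Grb2, Syk, Lyn, Btk, Plcg2 and Tyrobp) none passed with vehicle in edgeR or in DESeq2, 0 had an unadjusted p under 0.05, as 21.6% of all genes did, and their median log2 fold change was -0.00, beside 0.02 over all tested genes. Lyn, the kinase that phosphorylates inhibitory receptors, stood at -0.16 (adjusted p = 0.393 in edgeR). The genes next to Dok3 in the annotation, Pdlim7 (0.10) and Ddx41 (-0.13), did not pass with vehicle either. Under CP2 Ddx41 was lower in KO (-0.20, adjusted p = 0.0122 in edgeR) and Pdlim7 did not pass (-0.12, adjusted p = 0.244), beside 11.6% of all genes.

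Averaged over F and M, Dnase1l2 had the largest vehicle estimate of the 6 members, yet missed the threshold. In F the WT vehicle samples held 2.84, 1.72, 2.19, 1.45 and 1.04 CPM and the KO vehicle samples 1.55, 2.05, 0.58, 0.82 and 1.23 CPM, and the groups overlapped. In M the WT vehicle samples held 2.76, 4.21 and 3.60 CPM and the KO vehicle samples 2.47, 1.61 and 0.59 CPM, with no overlap, as for 20.9% of genes in that comparison of 3 against 3 samples. The average log2 fold change was -0.87 (SE 0.30, adjusted p = 0.0677 in edgeR), and the exact permutation test within letters gave p = 0.0139, unadjusted. It passed without KO vehicle F sample L279 (-1.0, adjusted p = 0.0357) and without KO vehicle M sample L310 (-1.12, adjusted p = 0.0281).

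Under CP2 Dnase1l2 spanned 1.49 to 2.65 CPM in WT F and 0.30 to 1.47 CPM in KO F. In M it spanned 2.28 to 5.42 CPM in WT and 0.77 to 1.50 CPM in KO. As for Dok3, all 4 KO means were below all 4 WT means, with the CP2 means again set apart by the choice of the members. Of 4 other DNases tested none passed with vehicle in edgeR or DESeq2 and 1 had an unadjusted p under 0.05, beside 21.6% of all genes. DNase I itself, Dnase1, stood at -0.44 (adjusted p = 0.104 in edgeR). Eci1, a fatty acid oxidation enzyme that lies next to Dnase1l2 on the opposite strand, was lower in KO than in WT with vehicle (-0.35, adjusted p = 0.0196).

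Adam8 was low throughout, at 0.45 to 4.56 CPM. With vehicle, WT F samples held 1.13, 1.39, 1.45, 0.71 and 0.96 CPM and KO F samples 1.59, 0.99, 0.58, 0.45 and 1.12 CPM. WT M samples held 1.80, 2.15 and 2.87 CPM and KO M samples 1.96, 0.97 and 1.23 CPM. The groups overlapped in both letters, and the average log2 fold change of -0.48 (SE 0.23) did not pass (adjusted p = 0.212 in edgeR).

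The CP2 estimates of Adam8 were of unequal size in F and M, at -0.78 (SE 0.29) and -2.29 (SE 0.29). WT CP2 M held 3.39, 4.56, 4.38, 2.83 and 2.99 CPM, above all other samples except that 1 WT vehicle M sample, at 2.87 CPM, passed the lowest of them. KO CP2 M held 0.66, 0.46, 0.78, 1.02 and 0.78 CPM. In F the spans were 1.30 to 1.55 CPM in WT CP2 and 0.46 to 1.07 CPM in KO CP2. Of 11 other ADAM family genes tested with vehicle, 1 passed in edgeR, Adam19, which was lower in KO (-0.46, adjusted p = 0.0058). DESeq2 called Adam9 beside it, and 4 had an unadjusted p under 0.05. Of all genes, 6.67% passed in edgeR, 9.06% passed in DESeq2 and 21.6% had an unadjusted p under 0.05. Tubgcp2, next to Adam8, was higher in KO with vehicle (0.20, adjusted p = 0.0462 in edgeR) and under CP2 (0.17, adjusted p = 0.0383). The overlapping Gm16201 and 6430531B16Rik on the other side passed in neither.

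The share of reads outside annotated genes, a property of each library, differed between groups. It was 9.05 to 13.22% in WT CP2 M and 5.18 to 9.06% in KO CP2 M, where Dok3 and Adam8 were high and low in turn. In F it was 5.45 to 7.18% in WT CP2 and 5.83 to 10.97% in KO CP2, with overlap, and both genes were lower in KO. With vehicle it was higher in KO in part: 9.48 to 11.64% in WT M against 11.26 to 13.03% in KO M, and 5.09 to 7.04% in WT F against 6.19 to 11.69% in KO F. Fitted with that share in the model, the CP2 estimate was -1.48 for Dok3, -1.41 for Adam8 and -1.44 for Dnase1l2. The vehicle estimate was then -0.83 for Dok3 (adjusted p = 0.0414 in edgeR) and -1.23 for Dnase1l2 (adjusted p = 0.0414). That of Adam8 was -0.73 in place of -0.48 and did not pass (adjusted p = 0.149). Among samples of the same group, the Pearson r with that share was 0.08 for Dok3, 0.38 for Adam8 and 0.34 for Dnase1l2. None of the 3 passed (adjusted permutation p = 0.769, 0.323 and 0.323). The part of that share in the members' differences was not tested.

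Cd180 differed between genotypes under CP2 and not detectably with vehicle. With vehicle, WT F samples held 2.76, 1.96, 2.82, 2.03 and 2.33 CPM and KO F samples 2.24, 1.55, 3.13, 2.45 and 2.21 CPM. WT M samples held 2.89, 1.59 and 3.00 CPM and KO M samples 4.01, 2.07 and 3.13 CPM. The vehicle groups lay on top of each other, with an average log2 fold change of 0.13 (SE 0.19, adjusted p = 0.74 in edgeR).

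The 2 KO groups given CP2 had the highest mean Cd180 levels. KO CP2 F held 3.55, 3.34, 4.04, 5.11 and 4.08 CPM, against 2.03, 2.61, 1.14, 2.12 and 1.50 CPM in WT CP2 F. KO CP2 M held 4.59, 4.0, 3.96, 5.68 and 5.40 CPM, against 2.12, 1.46, 1.59, 3.08 and 2.49 CPM in WT CP2 M. Set against vehicle, CP2 gave a log2 fold change of 0.71 (SE 0.18) in KO and -0.28 (SE 0.18) in WT, both without a test because the CP2 samples chose the gene.

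Its partner genes were looked at next. Ly86, the protein that carries Cd180 to the cell surface, stood at 0.02 with vehicle (adjusted p = 0.946 in edgeR) and at 0.74 under CP2 (adjusted p = 2.12e-05). Of the 19 Toll-like receptors, adaptors and partners tested, none passed with vehicle in edgeR, where 4 had an unadjusted p under 0.05, a share near that of all genes. DESeq2 called 2 of them, Tlr9 and Irak1, beside 9.06% of all genes. Under CP2, 2 of the 19 were higher in KO, beside 5.54% of all genes: Ly86 and the DNA-sensing receptor Tlr9 (0.61, adjusted p = 0.0268 in edgeR). The others did not pass. Mast4, which overlaps Cd180 on the opposite strand over 464 of its exon bases, stood at 0.13 with vehicle and -0.03 under CP2, and neither passed. The sources used here do not say whether reads were counted by strand.

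Cela1 was higher in KO with an estimate that missed the threshold with vehicle. WT vehicle F held 2.84, 2.68, 3.00, 3.57 and 3.01 CPM and KO vehicle F 4.16, 1.89, 3.29, 4.27 and 3.25 CPM. In M the WT vehicle samples held 2.23, 2.47 and 1.86 CPM and the KO vehicle samples 4.80, 3.95 and 2.41 CPM, of which the last lay among the WT samples. The average log2 fold change was 0.46 (SE 0.19, adjusted p = 0.144 in edgeR), and 0.75 with the reads outside genes as covariate (adjusted p = 0.0587).

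Under CP2 Cela1 spanned 1.85 to 2.93 CPM in WT F and 3.02 to 5.09 CPM in KO F. The spans in M were 1.22 to 2.51 CPM in WT and 2.79 to 7.74 CPM in KO. All 4 KO means were above all 4 WT means, with KO CP2 M on top. The choice of the members had set the CP2 means apart here too. The other elastase genes listed, Cela2a, Cela3a, Cela3b and Elane, did not reach the filter. Related genes tested were the chymotrypsin-like protease Ctrl and the inhibitors Serpina1a, Serpina1b, Serpinb1a and Slpi. Of these 5, 1 passed with vehicle, beside 6.67% of all genes. It was Serpinb1a, an inhibitor of neutrophil elastase, which was lower in KO (-0.57, adjusted p = 0.0431 in edgeR).

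**Figure D2:**
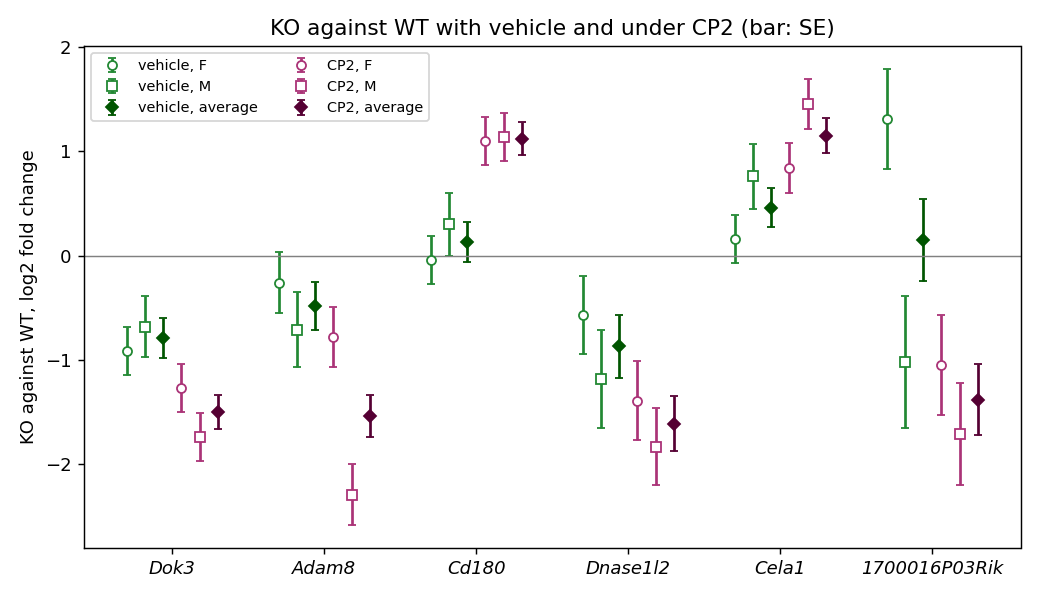
Log2 fold change of KO against WT (y axis) for each gene (x axis), with vehicle in green and under CP2 in purple, for F (circles), M (squares) and their average (diamonds); bars are the SE. Dok3, Adam8 and Dnase1l2 lie below 0 and Cela1 above 0 in all 6 estimates, of which the CP2 ones chose the members. Cd180 lies near 0 with vehicle (average 0.13) and at 1.12 under CP2.

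1700016P03Rik had opposite estimates in F and M with vehicle, and 1 sample set the one in F. WT vehicle F held 3.22, 1.51, 1.26, 1.89 and 1.58 CPM and KO vehicle F 15.47, 2.08, 2.71, 1.46 and 1.76 CPM, of which the first is sample L246. The log2 fold change was 1.31 (SE 0.48, adjusted p = 0.105 in edgeR) in F, 0.09 without L246 and 1.52 without KO sample L283 (adjusted p = 0.0464). In M the WT vehicle samples held 2.78, 1.98 and 2.21 CPM and the KO vehicle samples 1.13, 1.18 and 1.12 CPM. They did not overlap, as for 20.9% of genes in that comparison. The log2 fold change in M was -1.02 (SE 0.63, adjusted p = 0.548 in edgeR). The average was 0.15 (SE 0.39, adjusted p = 0.874), and -0.46 without L246, so no direction is given for vehicle. The difference between F and M, 2.32 (SE 0.79), did not pass over all genes (adjusted p = 0.353).

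Sample L246 also held the highest levels of Fos, Fosb and Nr4a1, which are activity-regulated genes that neurons switch on when they fire. Fos stood at 643.8 CPM there and at 73.24 CPM or less in the other 35 samples. Fosb reached 329.92 CPM and Nr4a1 479.7 CPM in L246, and the Mir132 and Mir212 rows 4.31 and 5.61 CPM. Within groups, over all 36 samples, 1700016P03Rik rose and fell with the mean of 16 activity-regulated genes (Pearson r = 0.86, permutation p = 3e-05, adjusted p = 0.00126 over 42 relations; Spearman rho = 0.78, permutation p = 4e-05). Without the 2 samples farthest from the median r was 0.75 (permutation p = 4e-05). Over the 16 vehicle samples alone r was 0.91, with an adjusted permutation p of 0.316.

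Under CP2 1700016P03Rik spanned 1.91 to 5.28 CPM in WT F and 0.82 to 1.74 CPM in KO F, and 1.92 to 4.89 CPM in WT M and 0.60 to 1.81 CPM in KO M. Of the 16 activity-regulated genes, 4 were lower in KO under CP2, where 6.07% of all genes were: Egr1 (-1.26), Egr2 (-2.26), Egr4 (-1.07) and Arc (-1.62). None of the 16 had a positive estimate there, and their median was -0.80. With vehicle none of the 16 passed averaged over F and M in edgeR or DESeq2, and 0 had an unadjusted p under 0.05, but their estimates lay on opposite sides of 0 in F (median 1.35, 14 of 16 positive) and M (median -0.74, 4 of 16 positive). In F, 4 were higher in KO, where 2.02% of all genes were: Npas4 (3.03), Fos (2.75), Fosb (2.61) and Btg2 (2.56). Without L246 none passed and the median was -0.35. None passed without WT sample L295 or L296 either, and Btg2 alone passed without WT sample L252, L277 or L278. The difference between F and M passed for none of the 16 in edgeR, where 11 had an unadjusted p under 0.05, and for 3 in DESeq2 (Btg2, Fos and Npas4). Ovca2, on the opposite strand, overlaps 641 of the 863 exon bases of 1700016P03Rik and did not pass with vehicle (-0.14) or under CP2 (-0.09).

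**Figure D3:**
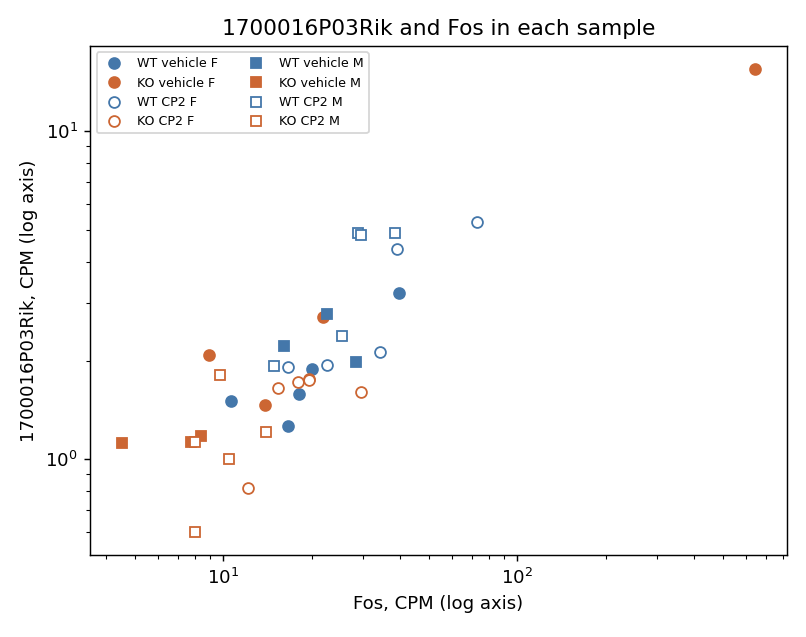
1700016P03Rik (y axis, CPM, log scale) against Fos (x axis, CPM, log scale) in each of the 36 samples, coloured by genotype (blue WT, orange KO), with circles for F, squares for M, filled points for vehicle and open points for CP2. KO vehicle F sample L246 lies alone at the top right, with 643.8 CPM of Fos and 15.47 CPM of 1700016P03Rik.

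Set against vehicle within each genotype, the average estimates of the 6 members had opposite signs in KO and WT, and are given without a test. These comparisons share their samples with those above. A choice by the difference of KO and WT under CP2 favours opposite signs here, so nothing is read from the signs. In KO the average log2 fold change of CP2 against vehicle was -0.44 for Dok3, -0.56 for Adam8, -0.61 for Dnase1l2, 0.43 for Cela1 and -0.82 for 1700016P03Rik (-0.20 without L246). In WT it was 0.26, 0.49, 0.13, -0.26 and 0.71 in the same order. The SE were 0.18, 0.22, 0.28, 0.18 and 0.37 in KO and 0.17, 0.22, 0.27, 0.18 and 0.37 in WT. In M alone 1700016P03Rik stood at 0.01 (SE 0.57) in KO and 0.70 (SE 0.56) in WT. With the reads outside genes as covariate the estimate in KO went to 0.06 for Cela1, -0.20 for Dnase1l2 and -0.25 for Adam8, and that of Dnase1l2 in WT to 0.02. Without KO vehicle M sample L310 the estimate in KO was -0.18 for Dok3 and -0.35 for Dnase1l2. In WT that of Dnase1l2 was 0.04 without L262 and 0.24 without L252.

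The myeloid question was put in 2 ways, through marker lists between genotypes and through variation among samples of 1 group. With vehicle, averaged over F and M, 2 of 12 homeostatic microglia markers were lower in KO and none was higher. They were Tmem119 (-0.34, adjusted p = 0.0278 in edgeR) and Fcrls (-0.56, adjusted p = 0.0307). Of 16 markers of activated microglia, Clec7a (1.08, adjusted p = 0.0395) and Gpnmb (1.01, adjusted p = 0.0425) were higher and none was lower. The shares of all genes were 2.87% higher and 3.80% lower. An unadjusted p under 0.05 in edgeR was found for 5 of the 12 homeostatic and 7 of the 16 activated markers, beside 21.6% of all genes. DESeq2 called 2 and 3 of them, beside 9.06% of all genes. None of 10 markers of border-associated macrophages, 8 of neutrophils, 8 of monocytes and 6 of B cells passed in edgeR. Of them, 2, 0, 1 and 0 had an unadjusted p under 0.05, and DESeq2 called 1, 0, 1 and 0. In F alone, where 4.96% of genes passed in edgeR, 2 homeostatic and 1 activated marker were lower in KO. They were Fcrls (-0.79, adjusted p = 0.0173), Selplg (-0.41, adjusted p = 0.034) and C1qb (-0.48, adjusted p = 0.0444). Stab1 of border-associated macrophages (-0.51, adjusted p = 0.0312) and Spn of monocytes (-4.87, adjusted p = 0.00432) were lower too. Spn was near the floor, with a median of 0.2 CPM. No marker of these lists passed as higher in F or at all in M.

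Under CP2, 6 of 12 homeostatic and 11 of 16 activated microglia markers were higher in KO and none was lower, against 5.54% of all genes higher. Ctss, the microglial cathepsin S, stood at 0.64, and Clec7a at 2.17. The summed level of the homeostatic markers was 413 to 564 CPM in KO CP2 F and 430 to 489 CPM in WT CP2 F, and 450 to 580 CPM in KO CP2 M and 365 to 455 CPM in WT CP2 M. Neutrophil markers summed to between 6.44 and 12.2 CPM in all samples, and the defining neutrophil genes Ly6g, Cxcr2 and Mmp8 did not reach the filter. Of 6 B cell markers tested, Cd22 (2.10, adjusted p = 0.00378 in edgeR) and Cd79b (1.20, adjusted p = 0.0422) were higher in KO under CP2 and none was lower, and the median of the 6 was 1.03. With each of the 20 CP2 samples left out in turn, Cd22 passed in 20 fits and Cd79b in 9. B cell markers summed to between 8.13 and 28.6 CPM over all samples, and Ms4a1 did not reach the filter. Ighm alone held 6.48 to 26.4 CPM and did not pass under CP2 (0.25, adjusted p = 0.435 in edgeR). Cd22 and Cd79b were near the floor, with medians of 0.199 and 0.312 CPM over all samples. The part of any of these cells in the members' differences was not tested.

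Among samples of the same group, no member passed with a myeloid score after adjustment over the 42 relations. Cela1 came closest, with r = 0.57 against homeostatic microglia (permutation p = 0.00312, adjusted p = 0.0655, Spearman rho = 0.46, r = 0.55 without the 2 farthest samples). Against activated microglia it had r = 0.49 (adjusted permutation p = 0.0967), and against the share of reads outside genes r = -0.48 (adjusted permutation p = 0.0967). Cd180 had r = 0.34 with homeostatic microglia (adjusted permutation p = 0.27), and 0.55 without the 2 farthest samples (adjusted permutation p = 0.0164). Dok3 had r = 0.15 with homeostatic and 0.37 with activated microglia (adjusted permutation p = 0.678 and 0.231), and Adam8 had 0.16 and 0.15. Adam8 had r = 0.35 with neutrophils (adjusted permutation p = 0.231), and 0.17 without the 2 farthest samples. Dnase1l2 had r = 0.48 with border-associated macrophages (permutation p = 0.0314, adjusted p = 0.22), and 0.28 without the 2 farthest samples.

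**Figure D4:**
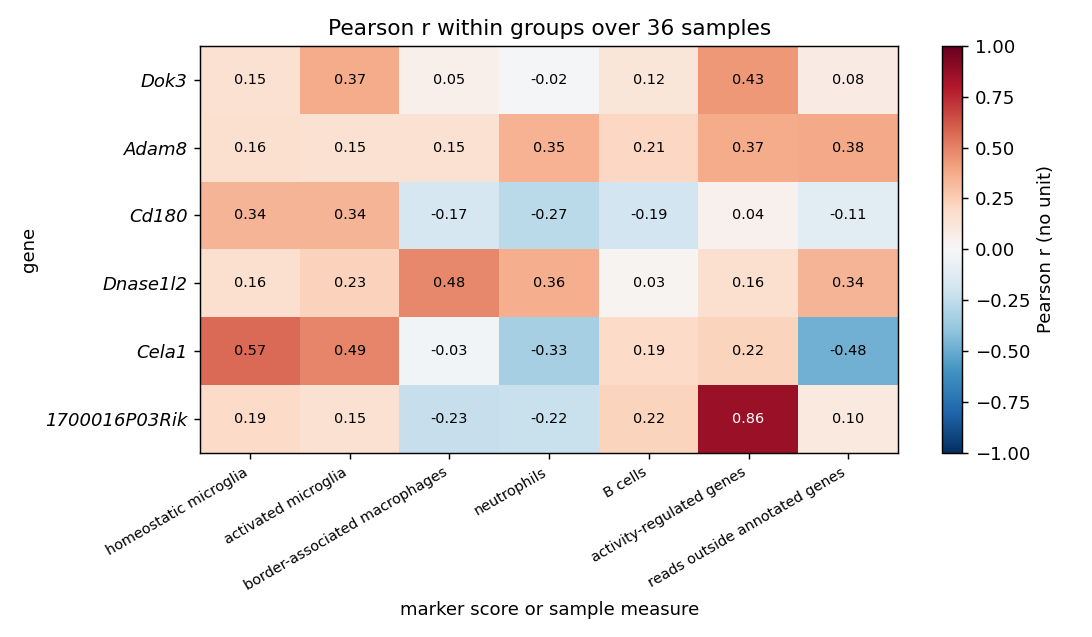
Pearson r within groups over the 36 samples (colour and number in each cell, from -1 in blue to 1 in red) between the 6 genes (rows) and 6 marker scores and the share of reads outside annotated genes (columns). The cell of 1700016P03Rik and activity-regulated genes, 0.86, stands out, followed by Cela1 and homeostatic microglia at 0.57.

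The genes most like each member were found by Pearson r of log2 CPM over the 36 samples, and are given as a description. With group means left in, which carry the differences that chose the members, Cd180 was most like Mpeg1 (0.74), Unc93b1 (0.73) and Cd33 (0.73), all genes of phagocytes. Cela1 was most like Ctss (0.81), 2810402E24Rik (0.78) and Lgmn (0.78), and Ctss and Lgmn encode lysosomal proteases. Dok3 and Dnase1l2 shared the same top gene, the splicing factor Tra2a (0.90 and 0.88). Adam8 was most like Zgpat (0.89), Fam193b (0.87) and Myo19 (0.85).

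With group means removed the lists changed. Cela1 was then most like the oligodendrocyte regulator Sox10 (0.75), Csrp1 (0.74) and Pllp (0.73). Dnase1l2 was most like Myo19 (0.86), Alpk1 (0.79) and Myh9 (0.76). Dok3 had Ccdc134, Med18 and Hspa1a at 0.68, Adam8 had Atg16l2, Tyk2 and Bc1 at 0.65, and Cd180 had Cd276 at 0.63, Hpgds at 0.60 and Pabpc1 at 0.58. 1700016P03Rik kept the early-response genes Fosb (0.89) and Fos (0.85), with Sik1 (0.84). Between members, Adam8 and Dnase1l2 had r = 0.61, Dok3 and Dnase1l2 0.39, and Dok3 and Adam8 0.36.

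Compared per length of exon in WT vehicle F, the members stood at 2.19 ± 0.898 CPM per kb for 1700016P03Rik, 1.66 ± 0.418 for Dok3, 1.31 ± 0.146 for Cela1, 0.793 ± 0.298 for Dnase1l2, 0.528 ± 0.0892 for Cd180 and 0.243 ± 0.0659 for Adam8 (SD, n = 5). The genes were measured in the same samples, and differences between them were not tested. Ovca2 overlaps 641 of the 863 exon bases of 1700016P03Rik, and whether reads were counted by strand is not stated. Exon lengths came from GENCODE M21.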

How the data were processed

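RNA-seq of polyadenylated RNA was deposited by the authors as 1 table of unnormalized counts for 36 samples, with Ensembl gene IDs. STAR, HTSeq and the build GRCm39 are named in the submitters' processing notes, without versions or settings. The 5 summary rows (12.0 to 19.6% of a sample's reads) were left out of library sizes. The share of reads outside annotated genes came from them, and 91.4% of the 56980 IDs matched a symbol.

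Genes were tested with edgeR 4.0.16 in R 4.3.3 (TMM, filterByExpr, quasi-likelihood with robust fit, all 36 samples, 1 coefficient per group) and Benjamini-Hochberg adjustment over 25601 genes, after the procedure was tested on simulated data. DESeq2 1.42.0 was an alternative. Each SE was obtained from the estimate and its F statistic. Levels are CPM on TMM library sizes, and log2 CPM used a prior count of 2. Single genes had exact permutation tests, and marker scores were means of log2 CPM minus group means, tested with 100000 permutations within groups in scipy 1.17.1. Reads outside genes as a measure within groups, and fits without 1 sample for activity-regulated genes and B cell markers, were added after seeing the data. The members and gene lists were chosen with earlier results of these data known. Named genes are the members, label checks, the 3 genes most like each member (mean of at least 1 CPM), neighbours, and list genes that passed or had the smallest p. Neighbours, exon lengths and sequences come from GRCm38 annotation, so gene coordinates of the count table are not given. The title numbers are not shared between groups, so no samples were paired.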

Additional observations from a re-analysis of the deposited data

Results flagged for a closer look

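Of 36 sets of 5 samples, 2 held a sample far from the rest, where chance gives about 5% of sets, and both concern 1700016P03Rik. KO vehicle F sample L246 stood at 15.47 CPM, with 0.91 of the group's range between it and the next sample. KO CP2 F sample L201 stood at 0.82 CPM, below the other 4, with a gap of 0.85 of the range.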

How the results depend on the processing

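Dok3 kept its vehicle call averaged over F and M in all 9 other settings (-0.83 to -0.75) and in all 16 fits without 1 sample (-1.05 to -0.68). Under DESeq2, 2 members passed that average (Dnase1l2 at -0.86, adjusted p = 0.0375), where 9.06% of genes passed in place of 6.67%. Also 2 members passed with the reads outside genes as covariate (Dnase1l2 at -1.23). There 2.9e+02 genes (1.14% of those tested) passed in place of 1708, and 1700016P03Rik turned to -0.04. With that covariate 0 members passed in F (Dok3 at -0.95, adjusted p = 0.0913; Cd180 turned to 0.02), 156 genes passed in F in place of 1270 and 66 in M in place of 132. With a hippocampal score as a covariate 0 members passed in F (Dok3 at -0.78, adjusted p = 0.0691; Adam8 turned to 0.04), and 254 genes passed in M and 196 for the difference between F and M in place of 26. Without a filter the counts were 828 in F and 15 for the difference. DESeq2 gave 550 in M and 128 for the difference, the stricter filter 226 in M, and the vehicle samples alone 74 in M and 4 for the difference. The causes were not tested.

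Leaving out 1 sample gave 729 (without KO vehicle M L322) to 2169 genes averaged over F and M, 573 (without WT vehicle F L296) to 2014 (without KO vehicle F L283) in F, 0 (without WT vehicle M L285) to 152 in M, 0 to 63 for the difference, and 2272 to 3038 under CP2. Members that passed numbered 1 to 2 averaged and 0 to 2 in F. Vehicle averages ranged from -0.64 to -0.38 for Adam8, 0.02 to 0.24 for Cd180, -1.12 to -0.68 for Dnase1l2, 0.35 to 0.58 for Cela1 and -0.46 to 0.29 for 1700016P03Rik. Cd180 in F ranged from -0.16 to 0.08 and was above 0 without L279 (0.08), L252 (0.03) or L278 (0.04), and the Dok3 difference between F and M to 0.30 without L310. The relation of Dok3 to reads outside genes turned to -0.08 in vehicle samples and -0.07 without the 2 farthest, and that of Dnase1l2 to -0.03 in vehicle samples. Relations that passed numbered 0 in vehicle samples and 2 without the 2 farthest. Without KO CP2 M L291 the CP2 estimates were -1.47 for Dok3 and Adam8, -1.58 for Dnase1l2, -1.38 for 1700016P03Rik, 1.23 for Cela1 and 1.14 for Cd180. Leaving out L266 and L291 together, chosen after seeing the data, changed no member's call. Counts of 18 to 884 per member and sample limit precision. No paired analysis was possible because the groups share no title number.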
